A study of Homo sapiens with 6 samples.

Results

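The genes described here are 9 regulators of tyrosine kinase signalling that are used by blood cells: the tyrosine phosphatases PTPN6 and PTPN11, the lipid phosphatase INPP5D, the exchange factors CYTH4 and VAV1, and the tyrosine kinases SYK, LYN, FES and BTK. They are 9 of the 25420 genes counted, and were put together as blood-lineage genes around PTPN6 and CYTH4, whose reads with T > C conversions fell strongly in the comparison of C646 with DMSO. The group was thus chosen by the fold changes of that comparison, whose values for the 9 genes are a description. No p-value is printed for them, and an adjusted p enters only as the cutoff by which all genes were called, so that a member's call is no test of it. The working name of the group also speaks of adaptors, but CYTH4 and VAV1 are exchange factors, and VAV1 alone combines an exchange domain with adaptor domains.

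MOLM-13, an established human acute myeloid leukaemia cell line, was treated with 10 µM C646, an inhibitor of the acetyltransferases CBP and p300, or with DMSO, the vehicle, for 2 h. In both groups 100 µM 4-thiouridine (4sU) was present for the last 1 h, so that every library, the controls included, comes from labelled cells. SLAM-seq reads an incorporated 4sU as C in place of T, and a read with T > C conversions (T > C read) marks RNA made during the labelling, apart from an unknown share of T > C mismatches in unlabelled RNA, while all reads on a 3′ UTR stand for total mRNA. Each group had 3 libraries of the same line, and since the labels do not say whether these were separate cultures, the errors and p-values measure only the spread between these libraries, which may be technical.

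Tyrosine kinases of the SRC, SYK and TEC families relay signals from immune, integrin and cytokine receptors in blood cells. SH2-domain phosphatases such as PTPN6 and inositol phosphatases such as INPP5D dampen these signals, while VAV proteins pass them on to the actin skeleton. Cytohesins such as CYTH4 load ARF GTPases with GTP and so act on membrane traffic and adhesion.

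The libraries held 7252597 to 10225448 reads on 3′ UTRs, of which 8.74% to 8.86% were T > C reads in DMSO and 6.34% to 6.71% in C646. T > C reads are given below as scaled CPM, the T > C reads of a gene as counts per 1e+06 reads on 3′ UTRs after TMM scaling, and all reads likewise. On this scale the median log2 fold change in T > C reads was -0.83 over 7722 tested genes, with quartiles of -1.46 and -0.25, and that of the 10851 genes tested in all reads was -0.0030. Scaling the T > C reads on themselves instead raised the median by 0.84, and that shift applies to every fold change of T > C reads below. The myeloid origin was visible in the reads, with 9 of 11 myeloid markers at 10 or more reads in every library. Their summed level of 3789 to 4075 CPM in DMSO and 3945 to 4209 CPM in C646 was mostly LYZ (2802 and 3029 CPM on average), and single markers moved more than the sum: CD33 was at 176 and 121 CPM and FLT3 at 122 and 187 CPM in DMSO and C646. Both HOXA9 and MEIS1 were detected, 5 of 5 erythroid and megakaryocyte markers were at 0, and of the B and T cell markers only CD3D reached 10 reads in every library. The 5 fibroblast and epithelial markers were low, none with 10 reads in every library, but their summed level was higher in C646, at 4.58 to 8.43 CPM in DMSO and 8.73 to 11.4 CPM in C646, mainly through COL1A1 (22, 10 and 6 reads in DMSO and 43, 52 and 68 in C646) and against KRT18, which had 50, 40 and 23 reads in DMSO and 9, 33 and 19 in C646, and its part in the results was not tested.

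Of the 9 genes, 8 had reads on a 3′ UTR. INPP5D, which encodes the inositol phosphatase SHIP1, was listed at 0 reads in all 6 libraries on its single 3′ UTR entry (GRCh38 chr2:233206709-233207903), which allows up to 3 reads, or 0.293 to 0.414 CPM depending on the library. That limit is for reads on this entry only, and whether INPP5D transcripts end outside it was not tested. A filter on low counts left 7 of the 9 genes in the model of T > C reads (not INPP5D and BTK) and 8 in that of all reads (not INPP5D).

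The promoters of 6 of the 9 genes, 10 promoters in all, are in the RefSeq table for GRCh38.p14 used here, each with 250 bases before and 50 after the start site. They are shown for GAGGAA, a sequence of the kind bound by ETS factors such as the myeloid regulator PU.1, which was searched on both strands (TTCCTC on the other strand). SPI1, which encodes PU.1, itself went from 199 ± 40.1 CPM of all reads in DMSO to 94.9 ± 21.9 CPM in C646 (SD, n = 3), a log2 fold change of -1.07 (SE 0.18), and its part in the values of the 9 genes was not tested. GAGGAA was present in 7 of the 10 promoters, from 5 genes, and in 27.9% of all 35116 promoters in the table. CYTH4, LYN and PTPN11 have no promoter in that table. PTPN6, SYK and BTK have more than 1, so the promoters are not independent, and INPP5D, which had no reads, is among the genes with a match. The 30 bases around a match are given for PTPN6 and VAV1, whose T > C reads fell past the cutoffs used below, for SYK, whose T > C reads did not, and for BTK, which had too few to test, in the direction of transcription, with the matching letters in capitals.
PTPN6 (chr12:6946589-6946618, + strand): ggcaggatcgagGAGGAAgtggctgattac
VAV1 (chr19:6772685-6772714, + strand): acaggcaaagaaGAGGAAgtggtagcacta
SYK (chr9:90801775-90801804, + strand): gttgcccaaaatGAGGAAgagccgcgggcc
BTK (chrX:101390806-101390835, - strand): actcaccccgacTTCCTCccgccccgcagc
The match began 24 bases after the start site in PTPN6 and 11, 32 and 27 bases before it in VAV1, SYK and BTK. The second PTPN6 promoter, 1 of the 3 SYK promoters and the FES promoter had none. The letters were thus found in genes called lower and in SYK, which was not, and were missing from FES, which was called lower. TATAAA was in none of the 10 promoters (11.5% of all promoters) and CCAAT in 2 (34.6%). A match describes the letters in the window and not a bound site.

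PTPN6 encodes SHP-1, the SH2-domain phosphatase that restrains receptor signalling in blood cells. In DMSO 361, 319 and 292 reads of PTPN6 carried a T > C conversion, and in C646 17, 19 and 10 did, which is 38.0, 44.2 and 39.3 scaled CPM against 2.25, 2.33 and 0.992. The groups did not overlap, and the lowest DMSO library lay far above the highest C646 library. The fold change in T > C reads was -4.48 on the log2 scale (SE 0.26), or 22.3-fold lower, which ranked 15 from the lowest of the 7722 genes tested. All reads of PTPN6 fell from 589, 697 and 623 CPM to 397, 282 and 149 CPM, with no overlap between the groups but a wide spread within C646. The means of 636 ± 55.4 and 276 ± 124 CPM (SD, n = 3) correspond to a log2 fold change of -1.21 (SE 0.25). In bulk RNA, fewer cells with the transcript and less transcript per cell cannot be told apart. PTPN6 reads came from 2 entries, of which the longer one held most reads (chr12:6961126-6961316, 191 bases, 3′ UTR).

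The T > C share of PTPN6, the percentage of its reads that were T > C reads, was 6.46, 6.34 and 6.31% in DMSO and 0.566, 0.824 and 0.668% in C646. This share is lower than that of most genes already in DMSO, at percentile 16.7 of the tested genes, whose median was 13.3%. Counted as conversions per covered T, which does not depend on how many T bases a read spans, PTPN6 was at percentile 23.6. In C646, among the 3061 genes averaging 500 reads or more, the PTPN6 share of 0.686 ± 0.130% was at percentile 0.947, beside a median of 4.85% and a first percentile of 0.690%. A library without 4sU was not analysed here, so the share that unlabelled RNA would give is unknown. PTPN6 lost 360 CPM of total reads on average (56.6%), of which T > C reads made up 38.7 CPM (10.7%). Of the 1294 genes with a DMSO share no higher than that of PTPN6, only WDR6, a gene picked out after its value was seen, also fell as far in all reads.

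PTPN11 encodes SHP-2, the close relative of PTPN6 that promotes RAS and ERK signalling. T > C reads of PTPN11 were at 5.90, 6.93 and 3.50 scaled CPM in DMSO and 3.44, 3.43 and 5.16 in C646, and the groups overlapped. On the log2 scale the change was -0.43 (SE 0.34), less negative than the median of all genes, and 0.40 with T > C reads scaled on themselves. In all reads PTPN11 was at 80.3 ± 2.45 CPM in DMSO and 83.5 ± 6.81 CPM in C646, a log2 fold change of 0.06 (SE 0.13). The fold changes of PTPN6 and PTPN11 were 4.05 log2 units apart in T > C reads (SE 0.43) and 1.26 in all reads (SE 0.28). The 3′ UTR of PTPN11 is long (chr12:112505825-112509913, 4089 bases), and 57.6% of its reads were multimapped, against at most 0.28% for any other member with reads, so that its level is less certain.

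**Figure D1:**
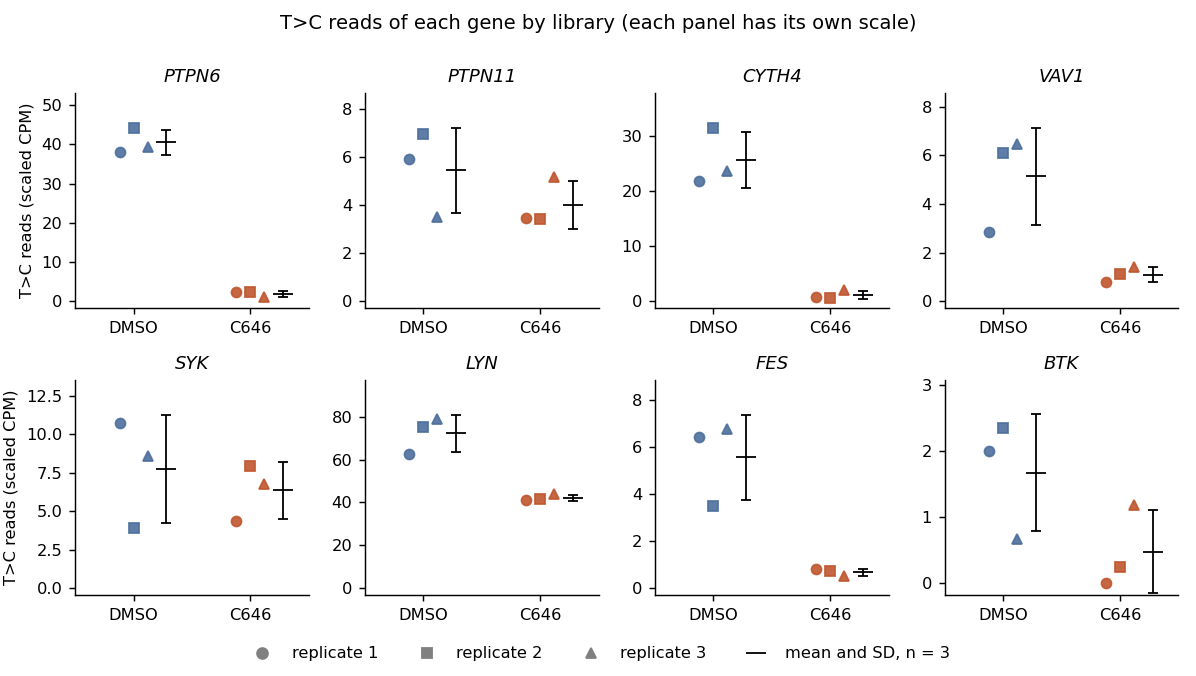
T > C reads (scaled CPM, linear axis from 0, each panel with its own scale) of the 8 genes with reads, in 3 DMSO and 3 C646 libraries; symbols are replicates, bars the mean and SD. The C646 libraries of PTPN6 sit at 0.992 to 2.33 beside 38.0 to 44.2 in DMSO, and those of PTPN11, SYK and BTK overlap their DMSO libraries.

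CYTH4 encodes cytohesin-4, an exchange factor for ARF GTPases that is found mainly in leukocytes. It had 207, 227 and 176 T > C reads in DMSO and 6, 4 and 20 in C646. In scaled CPM this was 21.8, 31.5 and 23.7 against 0.794, 0.490 and 1.98, without overlap, and C646 replicate 3 was the highest of its group. This is a log2 fold change of -4.47 (SE 0.32), or 22.1-fold lower, which ranked 16 from the lowest, next to PTPN6, and -5.29 without C646 replicate 3. The fold changes of CYTH4 and PTPN6 in T > C reads differed by 0.0099 with an SE of 0.41, so that a difference of that size could not be seen.

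All reads of CYTH4 were at 125, 149 and 129 CPM in DMSO and 75.0, 53.4 and 37.9 CPM in C646. The groups did not overlap, and the log2 fold change was -1.28 (SE 0.20). The T > C share went from 17.4, 21.1 and 18.3% to 1.06, 0.917 and 5.24%, so that in DMSO the share of CYTH4 was about 3 times that of PTPN6, at percentile 66.6 of the tested genes. The 2 genes thus had a similar fold change but a different share of labelled reads at the outset: T > C reads made up 31.1% of the total reads that CYTH4 lost, and 10.7% for PTPN6. CYTH4 has 1 entry (chr22:37313512-37315348, 3′ UTR).

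VAV1 encodes the blood-cell exchange factor that is phosphorylated by SYK- and SRC-family kinases. With DMSO it had 27, 44 and 48 T > C reads and with C646 6, 9 and 14, or 2.85, 6.10 and 6.46 against 0.794, 1.10 and 1.39 scaled CPM. All C646 libraries were below all DMSO libraries, and DMSO replicate 1 was the lowest of its group. The log2 fold change in T > C reads was -2.18 (SE 0.46), or 4.54-fold lower, and it was past the fold cutoff but no longer past the adjusted p cutoff, at -1.36, when T > C reads were scaled on themselves. In all reads VAV1 was at 73.2 ± 5.85 CPM in DMSO and 53.8 ± 2.42 CPM in C646, a log2 fold change of -0.45 (SE 0.14). The VAV1 3′ UTR is short (chr19:6857108-6857366, 259 bases).

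FES encodes a cytoplasmic tyrosine kinase with an F-BAR and an SH2 domain that is known from myeloid cells. It had 61, 25 and 50 T > C reads in DMSO and 6, 6 and 5 in C646, or 6.43, 3.47 and 6.73 against 0.794, 0.735 and 0.496 scaled CPM. The groups did not overlap, and the C646 libraries lay close together, each at no more than 6 reads. The fall was -3.04 on the log2 scale (SE 0.48), or 8.21-fold lower, with rank 184 from the lowest. FES and VAV1 differed by 0.85 log2 units in T > C reads (SE 0.66), which is little more than the error of the difference. All reads of FES were at 72.2, 66.5 and 76.6 CPM in DMSO and 63.0, 47.3 and 32.2 CPM in C646. Their log2 fold change of -0.60 (SE 0.20) passed neither the fold nor the adjusted p cutoff. The 3′ UTR is at chr15:90895559-90895776.

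LYN encodes the SRC-family kinase that is most used in myeloid and B cells, where it both starts signals and activates inhibitory receptors. LYN had 592, 544 and 585 T > C reads in DMSO and 310, 338 and 441 in C646, the largest numbers among the 9 genes. In scaled CPM this was 62.4, 75.4 and 78.8 against 41.0, 41.4 and 43.7, without overlap. A log2 fold change of -0.78 (SE 0.16) was close to the median of all genes, and became 0.064 with T > C reads scaled on themselves. All reads of LYN were at 475 ± 28.2 CPM in DMSO and 529 ± 28.7 CPM in C646, a log2 fold change of 0.16 (SE 0.12) with overlapping groups. The T > C share fell in level, from 15.2 ± 1.60% to 7.96 ± 0.484%, and the log2 fold change of its odds, which needs no scaling between libraries, was -1.05 (SE 0.14). It fell short of the fold cutoff without DMSO replicate 2 (-0.97) and without C646 replicate 1 (-0.99). The LYN 3′ UTR is at chr8:56010111-56012447.

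SYK encodes the kinase that binds phosphorylated immunoreceptor motifs and phosphorylates VAV1 and phospholipase C-gamma. T > C reads of SYK were at 10.8, 3.88 and 8.62 scaled CPM in DMSO and 4.36, 7.97 and 6.75 in C646. The groups overlapped, and the DMSO libraries alone covered the whole range of the C646 libraries. The log2 fold change was -0.29 (SE 0.32), and it turned to 0.55 with T > C reads scaled on themselves and to 0.029 at the most when 1 library was left out. In all reads SYK was the only member with every C646 library above every DMSO library, at 128, 115 and 136 CPM against 101, 91.1 and 100 CPM. The log2 fold change in all reads was 0.38 (SE 0.13), past neither the fold nor the adjusted p cutoff, and 24.5% of all genes tested had such higher, non-overlapping groups. LYN and SYK differed by 0.48 in T > C reads (SE 0.35). The SYK 3′ UTR is at chr9:90895601-90898560.

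BTK encodes the TEC-family kinase downstream of SYK and LYN, best known from the B cell receptor. It had 19, 17 and 5 T > C reads in DMSO and 0, 2 and 12 in C646, too few for the model. The groups overlapped, since C646 replicate 3 had more T > C reads than DMSO replicate 3. All reads were at 36.4, 49.2 and 29.8 CPM in DMSO and 30.3, 38.2 and 34.9 CPM in C646, a log2 fold change of -0.15 (SE 0.19) with overlapping groups, which was 0.06 without 1 of the DMSO libraries, replicate 2. BTK lies on the minus strand (3′ UTR at chrX:101349447-101349884).

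**Figure D2:**
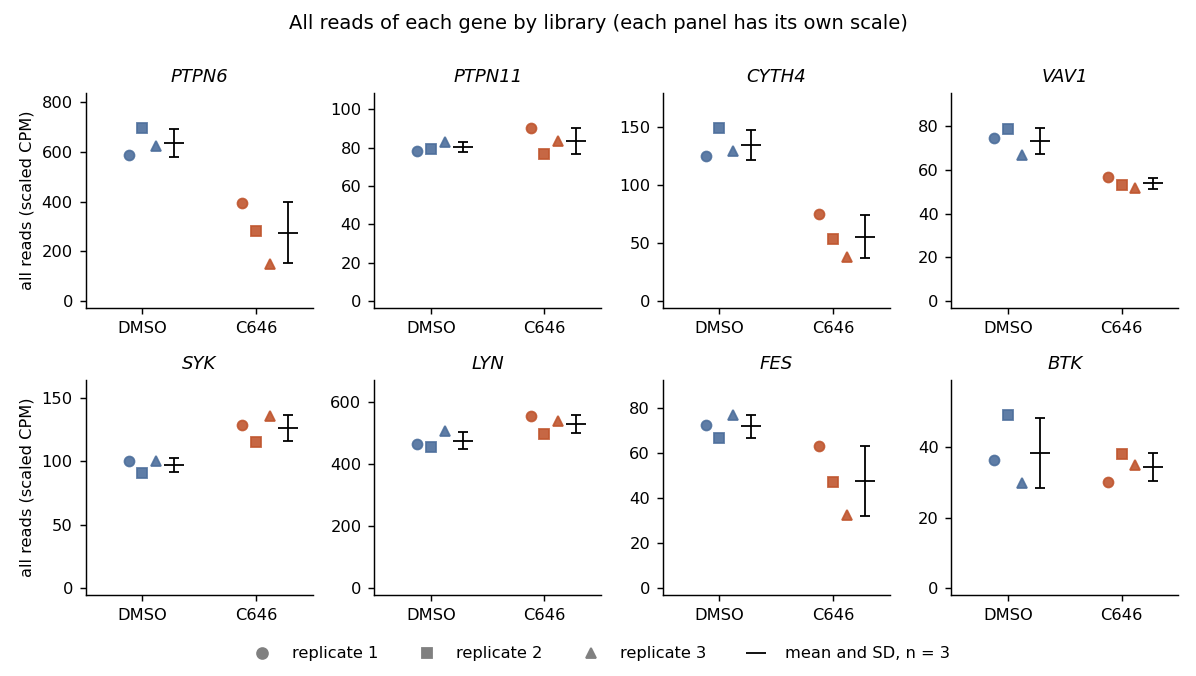
All reads (scaled CPM, linear axis from 0, each panel with its own scale) of the same 8 genes in 3 DMSO and 3 C646 libraries; symbols are replicates, bars the mean and SD. PTPN6 fell from 589 to 697 down to 149 to 397 and CYTH4 from 125 to 149 down to 37.9 to 75.0, while SYK was higher in every C646 library.

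Read together, 4 of the 7 members tested were lower in T > C reads at an adjusted p of 0.01 or less and a log2 fold change of 1 or more in size (PTPN6, CYTH4, FES and VAV1), and such genes made up 33% of all genes tested. In all reads 2 of 8 members were lower (PTPN6 and CYTH4), beside 1.88% of all genes tested, and in the odds of a T > C read 5 of 7 were lower (the same 4 and LYN), beside 38.3%. No member was called higher, beside 2.97% of genes in T > C reads, 5.89% in all reads and 0.79% in the odds. Every C646 library was below every DMSO library for 5 members in T > C reads (55.8% of genes tested), for 4 in all reads (23.1%) and for 5 in the T > C share (64.5%), and the reverse held for 0, 1 and 0 members (6.46, 24.5 and 2.18% of genes tested). Since the members were chosen in this comparison, nothing is read from these counts.

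**Figure D3:**
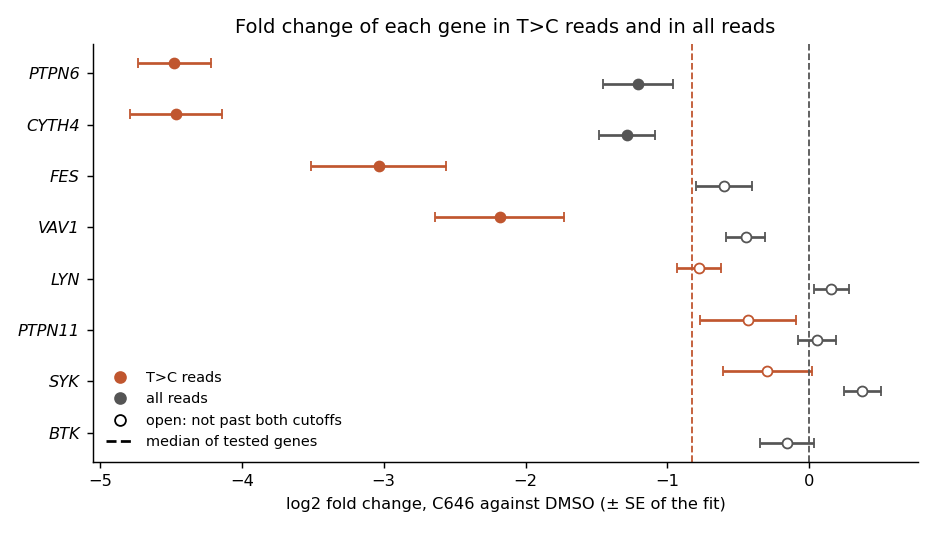
Log2 fold change (C646 against DMSO, ± SE of the model) in T > C reads and in all reads; filled points passed both cutoffs and dashed lines mark the medians of all tested genes, -0.83 and -0.0030. PTPN6 and CYTH4 stand at -4.48 and -4.47 in T > C reads, and LYN, PTPN11 and SYK at or above the median of all genes; on T > C reads scaled on themselves these 3 are at 0.064, 0.40 and 0.55.

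The call of PTPN6 in all reads was not kept in every fit with 1 library left out. Without C646 replicate 3, its lowest library, the log2 fold change was -0.91 and below the fold cutoff, and without DMSO replicate 2 (-1.14) or C646 replicate 2 (-1.22) it no longer passed the adjusted p cutoff. The C646 libraries of PTPN6, CYTH4, FES and VAV1 had the same order in all reads, with replicate 1 the highest and replicate 3 the lowest, at 0.64 and -0.78 log2 units from the group mean for PTPN6 and at 0.07 and -0.05 for VAV1. Over all genes whose most used 3′ UTR has 50 to 60% GC, the same libraries deviated by a median of 0.06 and -0.07, and the part of library quality in this order was not tested. The GC content itself moved with the result: the 3′ UTRs of the 4 falling genes have 55.0% (PTPN6), 58.7% (CYTH4), 59.5% (VAV1) and 61.0% (FES) GC, and those of SYK, BTK, LYN and PTPN11 have 47.9%, 45.0%, 39.9% and 39.1%. Over all genes the median log2 fold change in T > C reads went from -0.60 below 40% GC to -1.27 at 50 to 60% and -1.49 above, and in all reads from 0.20 to -0.26 and -0.38. An alternative added after the data were seen took the GC trend of all reads out of both measures. The medians of T > C reads fell more steeply with GC, and how much of their own trend remained was not tested. The T > C fold changes were then -4.20 for PTPN6, -4.12 for CYTH4, -2.71 for FES and -1.85 for VAV1, all still past both cutoffs. In all reads PTPN6 (-0.95) and CYTH4 (-0.97) then fell just short of the fold cutoff, and FES and VAV1 were at -0.28 and -0.11.

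The T > C share in DMSO uses no C646 library, but the DMSO T > C reads behind it also entered the fold changes that chose the genes, so that it too is a description. It is a ratio within a gene and also depends on how many T bases a read spans. CYTH4 (19.0 ± 1.91%) and LYN (15.2 ± 1.60%) were highest, at percentiles 66.6 and 56.1 of the tested genes. SYK (7.84 ± 3.27%), FES (7.63 ± 2.10%), VAV1 (7.09 ± 2.97%), PTPN11 (6.82 ± 2.34%) and PTPN6 (6.37 ± 0.0794%) followed at percentiles 24.4, 23.6, 20.7, 19.3 and 16.7, and BTK was at 4.19 ± 1.70%. Neighbours from SYK to PTPN6 did not differ beyond their spread, while the libraries of BTK lay below those of PTPN6, the libraries of CYTH4 lay above those of LYN, and those of LYN above those of SYK. By conversions per covered T, CYTH4 (percentile 63.4) and LYN (50.7) were again highest, while the order below them changed, with FES at 32.7, SYK at 30.6, VAV1 at 28.7, PTPN6 at 23.6 and PTPN11 at 14.1, and BTK, which has no percentile because it was not tested, had the lowest rate.

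Paralogues of the members moved to different degrees. Of the cytohesins, CYTH2 was lower in T > C reads (log2 fold change -1.68, SE 0.36, adjusted p = 0.000321, edgeR's quasi-likelihood test, Benjamini-Hochberg), CYTH1 was not called (-0.57, SE 0.49, adjusted p = 0.335, edgeR), and CYTH3 had too few T > C reads. INPPL1, the relative of INPP5D that many tissues use, was lower (-1.48, SE 0.41, adjusted p = 0.00354, edgeR) with 56, 28 and 40 T > C reads in DMSO and 7, 22 and 18 in C646. VAV3 was not called (-0.62, SE 0.46, adjusted p = 0.252, edgeR), and VAV2 had too few T > C reads. Of the SRC family, YES1 was lower (-1.88, SE 0.45, adjusted p = 0.000947, edgeR). FGR, FYN, SRC, LCK, FER, TEC and TXK had too few T > C reads to test, and ZAP70, BLK and BMX, which belong to lymphoid cells or other tissues, were at 0 reads in all libraries.

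The wider pathway was followed in 6 lists with 127 genes in all, which leave out the 9 members. Of the 87 genes tested in T > C reads, 41 were lower (47.1%, against 33% of all genes tested) and 0 higher, with a median log2 fold change of -1.13 against -0.83 for all genes. Of the 11 genes above 0, 3 had an unadjusted p under 0.05 in edgeR and 1 in DESeq2, which also called 0 higher. With T > C reads scaled on themselves, 11 were lower and 4 higher, beside 602 lower and 706 higher of all genes, against 2548 and 229 on the scale used here. In the odds of a T > C read 48 of the 87 were lower (55.2%, against 38.3% of all genes tested) and 0 higher (against 0.79%), with 1 gene above 0 and 0 of these at an unadjusted p under 0.05 in edgeR. In all reads 2 of 112 were lower (1.79%, against 1.88% of all genes tested), the exchange factor PSD4 (-1.16, SE 0.16) and the GTPase RHOG (-1.05, SE 0.22), and 9 were higher (against 5.89% of all genes tested), with a median of 0.09. Both calls were lost with the GC offset and with scaling by all filtered reads, where neither reached the fold cutoff, and that of RHOG also without DMSO replicate 1 or 2 or C646 replicate 2 or 3.

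Among the lists, 2 of 3 SRC-family and CSK kinases tested were lower in T > C reads (median -1.88), 3 of 7 other cytoplasmic tyrosine kinases (-1.20) and 8 of 16 tyrosine and lipid phosphatases (-0.92). The adaptors had 13 of 24 lower (-1.18), the phospholipase C and PI 3-kinase arm 8 of 12 (-1.22), and the list of exchange factors and small GTPases 7 of 25 (-0.83), the last with the median of all genes. Several of these counts changed when 1 library was left out, but fewer libraries also mean less power, and the part of any single library was not tested. Leaving out 1 library gave 4 to 6 phosphatases (4 without DMSO replicate 3, 5 without DMSO replicate 1) and 8 to 14 adaptors (8 without DMSO replicate 2, DMSO replicate 3 or C646 replicate 2). It gave 4 to 8 genes of the PI 3-kinase arm (4 without DMSO replicate 2, and 5 without DMSO replicate 3, C646 replicate 1 or C646 replicate 2) and 1 SRC-family or CSK kinase without DMSO replicate 1. CSK, the kinase that restrains the SRC family, was at 13.1, 10.7 and 8.89 scaled CPM of T > C reads in DMSO and 1.98, 1.23 and 0.298 in C646 (log2 fold change -3.28, SE 0.40, adjusted p = 8.7e-08, edgeR). It averaged under 50 T > C reads and was singled out after its value was seen.

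The genes named next had the largest fall in each of the other lists among the genes averaging 50 or more T > C reads, and in 4 of the 5 lists a gene with fewer reads fell further. PTK2B, a focal adhesion kinase relative in blood cells, went from 40.1 ± 7.07 to 15.8 ± 1.42 scaled CPM of T > C reads (-1.34, SE 0.19, adjusted p = 7.74e-07, edgeR), and its all reads were at 0.09 (SE 0.14). PTPN7, a haematopoietic phosphatase of MAP kinases, fell from 15.9 ± 4.43 to 2.75 ± 0.610 scaled CPM (-2.52, SE 0.28, adjusted p = 2.14e-08, edgeR). SLA, an adaptor that dampens receptor signalling, fell from 24.0 ± 3.05 to 3.35 ± 1.59 scaled CPM (-2.86, SE 0.27, adjusted p = 5.75e-10, edgeR), and in all reads it was at -0.77 (SE 0.17). ARHGEF2, an exchange factor bound to microtubules, fell from 41.3 ± 13.8 to 6.08 ± 1.00 scaled CPM (-2.77, SE 0.24, adjusted p = 1.16e-10, edgeR), with all reads at 0.08 (SE 0.17). PIK3CD, the leukocyte catalytic subunit of PI 3-kinase, fell from 14.3 ± 1.27 to 3.56 ± 1.16 scaled CPM (-1.98, SE 0.27, adjusted p = 6.62e-07, edgeR), with all reads at 0.25 (SE 0.15). In each of these 5 genes every C646 library was below every DMSO library in T > C reads, as in 55.8% of all genes tested. Since the 5 were picked for their falls, nothing is read from this. None fell as far as PTPN6 or CYTH4.

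The genes whose T > C reads were most like those of PTPN6 over the 6 libraries were found by the Euclidean distance between log2 scaled CPM centred on each gene's mean, among 2842 other genes averaging 50 or more T > C reads. They were MNT (distance 1.11), EXOSC4 (1.22), POLR1G (1.23), MAFK (1.24) and SRM (1.39). Nearest to CYTH4 were PLD6 (0.632), POLR1G (0.723), C15orf39 (0.979), CCDC86 (1.17) and SRM (1.32), so that POLR1G and SRM stood in both sets. Their log2 fold changes in T > C reads ran from -3.65 to -4.12. Of the other members, only LYN and SYK had enough T > C reads to be candidates. In all reads the nearest genes of PTPN6 were spread between -0.71 for MAFK and -1.69 for MNT, around the -1.21 of PTPN6.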

How the data were processed

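SLAM-seq was done in 3 DMSO and 3 C646 libraries of MOLM-13 cells, grouped by their labels. Per the study's methods, QuantSeq 3′ end reads were aligned (GRCh38) and counted by the authors in slamdunk v0.4.1. They deposited raw counts per 3′ UTR of all reads, T > C reads, conversions and multimapped reads, and a coverage signal summed over T positions, none of them normalized. The deposited CPM values are scaled to the filtered reads, which gave the filtered total of each library, and the deposited conversion rate, a fraction, served only to check the columns behind it. Length and T content, other deposited columns, place the entries. T content is listed as 0 throughout C646 replicate 3, and elsewhere it equalled that of GRCh38 for 25420 of 25420 3′ UTRs looked up. A T > C read in these tables was taken as a read with at least 1 conversion, while the study's own test used a higher minimum.

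Counts were summed over the entries of each gene (58136 entries, 25420 genes, 25310 with a symbol) and tested with edgeR 4.0.16 (quasi-likelihood, filterByExpr, Benjamini-Hochberg) in R 4.3.3. T > C reads were scaled by TMM-scaled totals of all reads, all reads by TMM, and the odds of a T > C read were fitted with a library factor. Calls needed an adjusted p of 0.01 or less and a log2 fold change of 1 or more in size, and SEs are the size of the log2 fold change over the square root of F. The SE of a difference between genes combines the SEs of both as if they were independent, although the genes share their libraries. The distances between genes used log2 of CPM plus 0.5. The scripts were tested on simulated data. DESeq2 1.42.0, other scalings and filters, a replicate block and each library left out were the alternatives, with a GC offset, fitted on all reads, added after seeing the data. Tables were made with Python 3.11.15 and pandas 2.3.3. Named genes were the 9 members, their paralogues, the largest called fall and rise per list averaging 50 or more T > C reads, and the 5 nearest patterns of PTPN6 and CYTH4. Results for some further genes that met this rule are not reported here. The members and the lists were chosen with earlier results of these data known, so they are no independent support. Each member's 3′ UTR lies on an annotated UTR of that gene and on no exon of another gene. Reads carry no molecular identifiers, so the limit given for a count of 0 covers counting error only.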

Additional observations from a re-analysis of the deposited data

How the results depend on the processing

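No called value changed sign, but calls of members were lost: that of VAV1 in T > C reads when these were scaled on themselves, those of PTPN6 and CYTH4 in all reads with the GC offset, and, without single libraries, those of PTPN6 in all reads and of LYN and VAV1 in the odds (libraries named in the report and below). With T > C reads scaled by TMM on themselves, the log2 fold changes were -3.63 (PTPN6), 0.40 (PTPN11), -3.64 (CYTH4), -1.36 (VAV1), 0.55 (SYK), 0.064 (LYN) and -2.20 (FES), the counts over all genes were 602 lower and 706 higher, and those over the 6 lists 11 lower and 4 higher. Scaling by all filtered reads gave -0.57 for LYN in T > C reads and, in all reads, 0.26 (PTPN11), -0.24 (VAV1), 0.58 (SYK) and 0.36 (LYN), with 90 genes lower, 1014 higher and 0 of the lists lower. A minimum of 50 T > C reads on average left 1038 genes lower and 125 higher, and 16 of the lists lower, from fewer genes tested. The GC offset moved all reads of VAV1 to -0.11 and of SYK to 0.51, with 129 genes and 0 of the lists lower. Leaving out 1 library at a time, T > C reads of CYTH4 ran from -5.29 to -4.13, the genes lower in all reads from 120 (without DMSO replicate 2) to 321 (without C646 replicate 1) and those of the lists from 1 to 2. Apart from the scaling, whose construction sets the shift, the causes were not tested.

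Whether same-numbered libraries are pairs is not known: the correlations of their deviations were -0.0014, 0.14 and 0.23 in all reads and 0.030, 0.044 and 0.065 in T > C reads. Those of differently numbered libraries ran from -0.22 to 0.15 in all reads and from -0.050 to 0.016 in T > C reads. In T > C reads each same-numbered correlation was thus above all the others, though all were small. With a replicate block 2586 genes were lower and 226 higher in T > C reads, and PTPN6 was at -4.49. VAV1 lost its call in the odds of a T > C read without DMSO replicate 2 (-1.65) or 3 (-1.47). Depth limits BTK, FES and VAV1, which had at most 14 T > C reads in any C646 library. The falls of PTPN6 and CYTH4 also rest on few T > C reads in C646, at 17, 19 and 10 for PTPN6 and 6, 4 and 20 for CYTH4.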

Other observations

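A gene of the phospholipase C and PI 3-kinase list, picked out after its values were seen, moved in opposite directions in the 2 measures: AKT1, a kinase downstream of PI 3-kinase, was lower in T > C reads (log2 fold change -1.98) and higher in all reads (1.55), each past both cutoffs of edgeR's test. AKT1 was the only gene of that list called higher in all reads. With 1 library left out the list had 0 to 1 such genes, so that this call was not kept in every fit. BTK, which the model of T > C reads left out for its low counts, depended on 1 library when the filter was met with a library removed: its log2 fold change in T > C reads was -3.58 without C646 replicate 3, which holds 12 of its 14 T > C reads in C646, and then passed both cutoffs, as it did in the odds (-3.47), and -1.15 without C646 replicate 1, not past them. Of the 1294 genes with a T > C share in DMSO no higher than that of PTPN6, 14 (1.08%) were lower in all reads past both cutoffs, PTPN6 among them, and of the 6428 genes with a higher share 162 (2.52%) were.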
